A study of Mus musculus with 16 samples.

Results

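The 7 genes Plau, Plaur, Plat, Timp1, Timp3, Mmp14 and Adamts1, which act in plasminogen activation and matrix turnover, were followed in mouse kidney after cisplatin. They were taken by name from a table of 46078 genes, 7 of 7 names were found, and all 7 passed the filter on low values (at least 1 TPM in at least 4 libraries, which 15014 genes met). Timp1 passed it only with the libraries given cisplatin without preconditioning counted, where it was high. TPM, the unit of expression used here, is a gene's reads per base of its exons, scaled so that each library sums to 1000000. In kidneys given cisplatin without preconditioning, Plaur, Plat, Timp1, Mmp14 and Adamts1 were higher than in saline controls and Timp3 was lower, while Plau did not pass the test. In kidneys of calorie-restricted mice given cisplatin, no member passed the test against saline controls. In kidneys of mice preconditioned by hypoxia the members' levels differed widely from library to library.

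Plasminogen is turned into the protease plasmin by 2 activators, urokinase (encoded by Plau) and tissue plasminogen activator (Plat). Urokinase is held at the cell surface by its receptor (Plaur), and secreted serpins block the activators and plasmin. Plasmin dissolves fibrin and takes part in activating matrix metalloproteases, zinc enzymes that cut collagens and other matrix proteins. Mmp14 encodes a membrane-anchored member of that family, and Adamts1 a secreted metalloprotease that cuts proteoglycans. Timp1 and Timp3 encode tissue inhibitors of metalloproteases; the TIMP3 protein binds to the matrix itself and also inhibits ADAM and ADAMTS enzymes. In the kidney, urokinase is made by tubule cells and reaches the urine.

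The libraries hold RNA of perfused kidneys of C57BL/6 mice aged 20 weeks, taken 72 h after an intraperitoneal injection and depleted of ribosomal RNA. The 4 groups of 4 libraries were compared: saline (0.9% sodium chloride) without preconditioning (vehicle, BL_vehicle), cisplatin without preconditioning (cisplatin alone, BL_cisplatin), cisplatin after 4 weeks of calorie restriction (CR_cisplatin), and cisplatin after hypoxia of 2 h, 4 h and 8 h on 3 days, ending at least 1 h earlier (HP_cisplatin). Cisplatin is a platinum drug toxic to the proximal tubule. No group was preconditioned and given saline, so an effect of preconditioning without cisplatin was not measured, and sex and cisplatin dose are not given in the sources used here. Whether the 4 libraries of a group came from 4 mice is not stated, so every p-value reflects the spread among libraries, which may be technical.

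The TPM steps gave back between 49180903 and 62604521 reads a library. The injury was visible in the tubule genes: Slc34a1, which encodes a phosphate transporter of proximal tubule cells, averaged 1787 TPM in vehicle and 22.3 in cisplatin alone, and Havcr1, which encodes kidney injury molecule 1, 0.758 and 383. Among 120 pairs of libraries, HP_cisplatin 4 and CR_cisplatin 4 were the closest, with a median squared difference of 1.81 times counting noise over 16762 genes; the closest pair within a group stood at 3.33. Their groups share cisplatin but not the preconditioning, and both carry the second of the title prefixes described next. Whether they share a source or were mixed up was not tested, and results of the hypoxia group are given with and without HP_cisplatin 4. Titles carry 2 prefixes whose meaning the labels do not give. The first covers all cisplatin-alone libraries and CR_cisplatin 1, the second every other library. For cisplatin alone against vehicle and against hypoxia, prefix and group therefore cannot be told apart within a prefix. A fit with title prefix as a term estimates that term only from CR_cisplatin 1 against CR_cisplatin 2 to 4.

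Promoters are shown for Plaur, Timp1, Mmp14 and Adamts1, the members that rose and have a RefSeq entry (5 of the 7 members matched), because these genes moved together across libraries. Each line gives the 250 bases before the RefSeq start site on GRCm38.p6, written 5′ to 3′ along the gene. Capitals mark matches, on either strand, to 5 motifs: AP-1 (TGANTCA), CRE (TGACGTCA), TATA box (TATAAA), GC box (GGGCGG) and STAT (TTCNNNGAA).
Plaur, chr7:24462233-24462482 (plus strand): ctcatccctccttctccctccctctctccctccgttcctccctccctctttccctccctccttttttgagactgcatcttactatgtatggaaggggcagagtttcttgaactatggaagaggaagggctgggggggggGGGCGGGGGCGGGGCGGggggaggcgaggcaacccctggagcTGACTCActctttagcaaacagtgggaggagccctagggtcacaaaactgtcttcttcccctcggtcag
Timp1, chrX:20869916-20870165 (plus strand): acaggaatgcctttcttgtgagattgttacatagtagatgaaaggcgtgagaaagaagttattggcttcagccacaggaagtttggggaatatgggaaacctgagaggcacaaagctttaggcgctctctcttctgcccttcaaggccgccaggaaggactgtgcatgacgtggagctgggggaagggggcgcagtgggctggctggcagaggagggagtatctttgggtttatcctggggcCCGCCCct
Mmp14, chr14:54431348-54431597 (plus strand): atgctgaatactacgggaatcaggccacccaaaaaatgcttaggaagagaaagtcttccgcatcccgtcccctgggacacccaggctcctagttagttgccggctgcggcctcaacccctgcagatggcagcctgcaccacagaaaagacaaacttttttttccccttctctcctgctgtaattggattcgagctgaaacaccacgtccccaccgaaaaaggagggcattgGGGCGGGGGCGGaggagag
Adamts1, chr16:85803114-85803363 (minus strand): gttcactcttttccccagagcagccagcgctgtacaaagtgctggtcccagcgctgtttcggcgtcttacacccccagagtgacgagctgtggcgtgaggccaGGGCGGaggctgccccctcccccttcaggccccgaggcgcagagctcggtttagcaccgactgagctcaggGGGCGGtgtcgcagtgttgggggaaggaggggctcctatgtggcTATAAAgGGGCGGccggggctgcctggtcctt
The Plaur window holds the AP-1 match TGACTCA beginning 69 bases before the start, and 3 GC boxes that adjoin or overlap. Over 32851 promoter windows of the same length, 6.75% hold an AP-1 match. The Adamts1 window holds TATAAA beginning 32 bases before the start, a match found in 12.4% of windows, next to a GC box at 25 bases. GC boxes, in 32.7% of windows, are the only matches in the Mmp14 and Timp1 windows, and the Timp1 copy lies on the opposite strand. The window of Timp3, which fell, is not shown. Its only match is also a GC box on the opposite strand, beginning 15 bases before the start. CRE (1.55% of windows) and STAT matches (7.02%) are in none of the 4 windows. These matches describe letters and say nothing of binding.

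Plau, the urokinase gene (ENSMUSG00000021822, GRCm38 chr14:20836660-20843385, plus strand), was one of the highest members in every group. In vehicle libraries 1 to 4 it stood at 199.7, 135, 202 and 111 TPM, and with cisplatin alone at 172, 182, 189 and 231 TPM. After calorie restriction the values were 231, 162, 157 and 169 TPM, and after hypoxia 288, 198, 327 and 165 TPM. All 4 groups overlap, and vehicle libraries 2 and 4 were the lowest of the 16. Cisplatin alone differed from vehicle by 0.29 on the log2(TPM + 1) scale (SE 0.23, 95% interval -0.21 to 0.79, adjusted p 0.279), and the sign turned with title prefix as a term (-0.21). Hypoxia against vehicle gave 0.59 (95% interval 0.08 to 1.09, adjusted p 0.0702), and 0.76 (adjusted p 0.0132) without HP_cisplatin 4.

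Plaur, the urokinase receptor gene (ENSMUSG00000046223, chr7:24462484-24475968, plus strand), had the largest difference among the members on the log2(TPM + 1) scale. By the ratio of means, with a pseudocount of 0.1 (4.42 against 5.09) and with voom on recovered reads (4.60 against 5.57) that of Timp1 was larger. It measured 2.83, 1.82, 2.83 and 1.71 TPM in vehicle and 50.3, 51.3, 53.4 and 44.6 TPM with cisplatin alone. Calorie-restricted libraries gave 1.86, 1.51, 1.69 and 1.42 TPM, and hypoxia libraries 61.3, 9.69, 29.8 and 1.31 TPM. Cisplatin-alone and vehicle values do not overlap, calorie restriction overlaps vehicle but not cisplatin alone, and the hypoxia libraries run from below every vehicle library to above every library given cisplatin alone. The mean rose 21.7-fold, from 2.30 ± 0.617 TPM to 49.9 ± 3.77 TPM (SD, n = 4), a log2 fold change of 3.96 (SE 0.68, limma adjusted p 0.00019). With title prefix as a term the adjusted p was 0.0558 for a log2 fold change of 3.79, with a larger SE (1.345).

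Plat, the gene of tissue plasminogen activator (ENSMUSG00000031538, chr8:22757727-22782844, plus strand), stood at 18.7, 19.0, 22.4 and 20.0 TPM in vehicle. With cisplatin alone it reached 138, 129, 149.6 and 189 TPM. Calorie-restricted libraries held 23.4, 17.9, 20.3 and 21.7 TPM and hypoxia libraries 160.0, 23.3, 86.2 and 20.8 TPM. Libraries 2 and 4 of hypoxia lay near the vehicle range, library 1 within the range of cisplatin alone, and library 3 between. The rise with cisplatin alone was 7.55-fold, from 20.0 ± 1.70 TPM to 151 ± 26.9 TPM (SD, n = 4), with a log2 fold change of 2.84 (SE 0.47, adjusted p 0.000153). That call ended with title prefix as a term (2.62, adjusted p 0.0562), where the SE was larger (0.93).

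Timp1 (ENSMUSG00000001131, chrX:20870166-20874735, plus strand) was nearly silent without injury. Vehicle libraries held 0.248, 0.329, 0.324 and 0.302 TPM, which is 9 to 12 reads each, and libraries with cisplatin alone 13.5, 12.2, 10.7 and 19.1 TPM (362 to 691 reads). Calorie-restricted libraries held 0.361, 0.0635, 0.598 and 0.440 TPM (2 to 20 reads), and hypoxia libraries 10.3, 2.33, 3.13 and 0.601 TPM. The 4 hypoxia values lie below those of cisplatin alone and above those of vehicle and of calorie restriction, in the last case by a margin of 0.601 against 0.598 TPM. The mean of cisplatin alone was 46.1 times that of vehicle (13.9 ± 3.70 against 0.301 ± 0.0370 TPM, SD, n = 4). On the log2(TPM + 1) scale, which understates the change of a gene this low, the difference was 3.48 (SE 0.40, adjusted p 4.18e-05). Timp1 met the filter only with the cisplatin-alone libraries counted, so its tests against that group were not independent of the filter.

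Timp3 (ENSMUSG00000020044, chr10:86300372-86349506, plus strand) was the member with the highest mean TPM in vehicle and the only one that fell. Its values were 257, 262, 237 and 258 TPM in vehicle and 90.6, 81.8, 82.8 and 95.8 TPM with cisplatin alone. Calorie restriction gave 235, 264, 220.0 and 244 TPM, and hypoxia 104, 121, 116 and 246 TPM. Hypoxia libraries 1 to 3 lay just above the cisplatin-alone range, and HP_cisplatin 4 lay within the vehicle range. The mean in vehicle was 2.89 times that in cisplatin alone, 253 ± 11.1 against 87.8 ± 6.66 TPM (SD, n = 4), and the log2 fold change was -1.52 (SE 0.20, adjusted p 4.95e-05). Timp1 rose while Timp3 fell in the same libraries.

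Mmp14 (ENSMUSG00000000957, chr14:54431612-54445364, plus strand) was low throughout, at 1.36, 1.26, 1.67 and 1.41 TPM in vehicle and 4.59, 5.47, 5.96 and 4.83 TPM with cisplatin alone. It measured 1.20, 1.09, 1.48 and 1.36 TPM after calorie restriction and 3.91, 2.49, 2.76 and 1.35 TPM after hypoxia. All 4 hypoxia values were under the cisplatin-alone range, and 3 were above the vehicle range. The mean was 3.66 times higher with cisplatin alone than in vehicle, 5.21 ± 0.623 against 1.42 ± 0.175 TPM (SD, n = 4), with a log2 fold change of 1.36 (SE 0.16, adjusted p 4.21e-05).

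Adamts1 (ENSMUSG00000022893, chr16:85793827-85803113, minus strand) measured 17.9, 13.0, 14.1 and 19.4 TPM in vehicle and 62.2, 70.1, 65.6 and 60.1 TPM with cisplatin alone. It stood at 12.9, 17.7, 18.5 and 14.6 TPM after calorie restriction and at 60.3, 21.4, 33.6 and 14.0 TPM after hypoxia. HP_cisplatin 1 reached the lowest cisplatin-alone values and HP_cisplatin 4 fell inside the vehicle range. The rise with cisplatin alone was 4.01-fold, from 16.1 ± 3.06 TPM to 64.5 ± 4.35 TPM (SD, n = 4), with a log2 fold change of 1.95 (SE 0.31, adjusted p 0.00011).

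**Figure D1:**
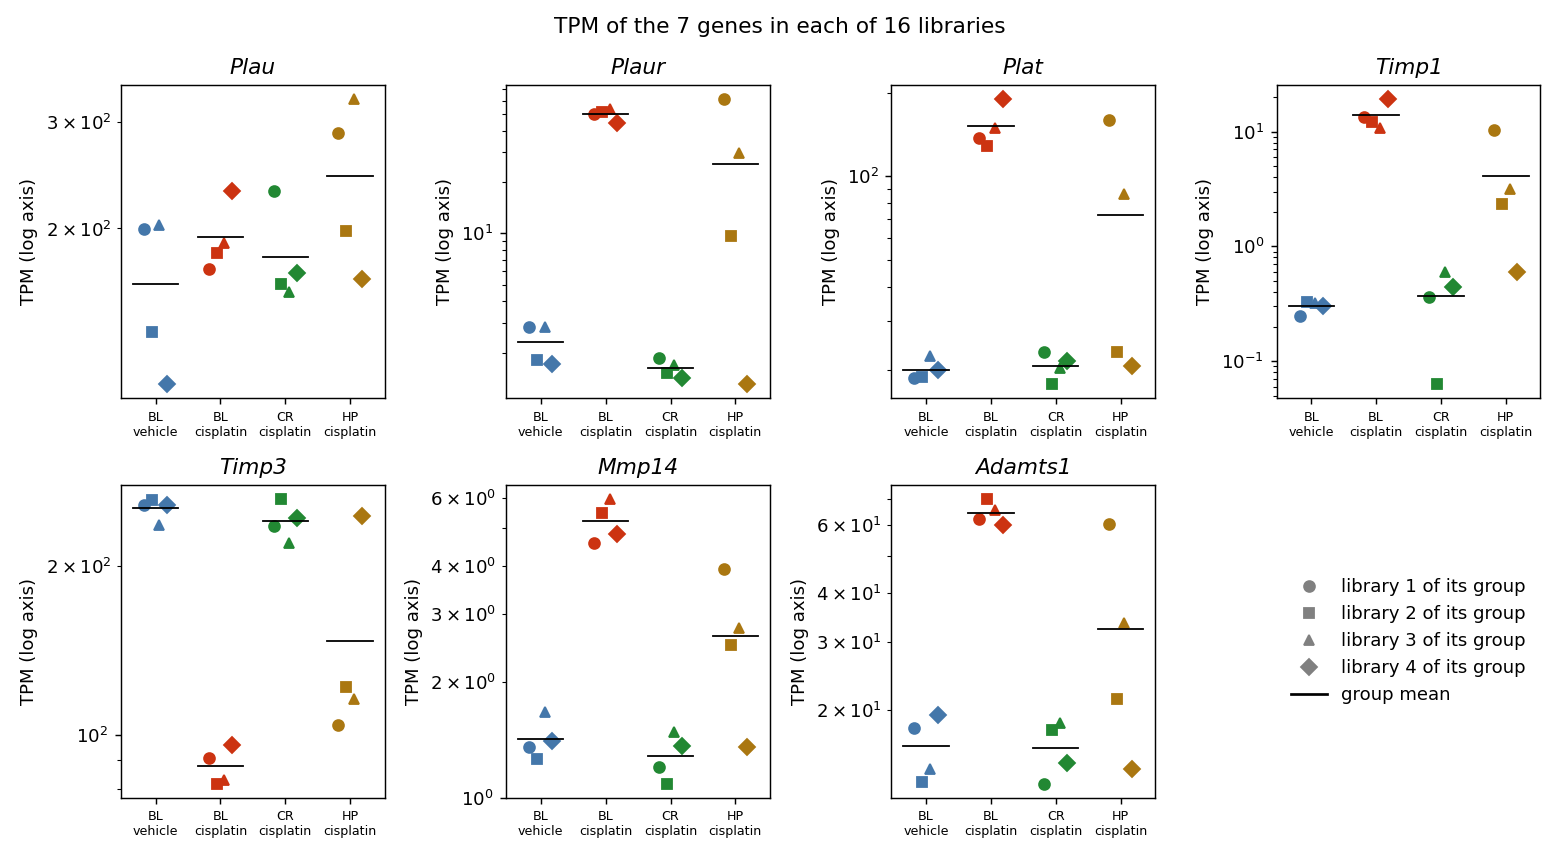
Each panel plots the TPM of 1 member (log axis) in the 16 libraries by group, with marker shapes for libraries 1 to 4 of a group and a line at the group mean. Vehicle and calorie-restricted libraries share a level for 6 members, cisplatin alone stands apart from both, and most hypoxia libraries lie between them or at their edges, while the groups of Plau overlap. For Plaur, HP_cisplatin 1 (61.3 TPM) is above every cisplatin-alone library and HP_cisplatin 4 (1.31 TPM) below every vehicle and calorie-restricted one.

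Counted together for cisplatin alone against vehicle, 5 of 7 members were higher, 1 lower and 1 not called. Those higher include Timp1, whose test was not independent of the filter. Of all 15014 genes tested 66.8% were called, 38% higher and 28.8% lower, so a call was common in these kidneys and is not particular to the members. Of the genes called 56.9% were higher, and 67.4% when the TPM sum left out the most abundant genes. The members' median log2 fold change was 1.95, against 0.08 over all genes tested. Rank order also shifted: Timp3 led in vehicle and stood in the third place behind Plau and Plat with cisplatin alone, and Timp1 passed Mmp14. Timp1 lies inside Syn1 and Timp3 inside Syn3, each on the opposite strand, and whether the counting used strand is not given in the sources used here. Syn1 stayed at or under 0.172 TPM and shares 0 exon bases with Timp1. Syn3 shares 1733 exon bases with Timp3, ran from 0.281 to 1.1 TPM and was lower with cisplatin alone (-0.55, adjusted p 0.000472). Reads in the shared bases cannot be assigned without strand. Timp3 itself ran from 81.8 to 264 TPM, far above the level of Syn3 in every library.

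Ratios within a library show the shift in composition and carry no test. Plat over Plau was 0.0936, 0.141, 0.111 and 0.181 in vehicle and 0.802, 0.705, 0.791 and 0.82 with cisplatin alone, so transcripts of the 2 activators were nearer to parity in the latter. Plaur over Plau was 0.0135 to 0.0155 in vehicle, 0.193 to 0.293 with cisplatin alone and 0.00805 to 0.0108 after calorie restriction. The calorie-restricted range lies below the vehicle range, and HP_cisplatin 4 lies lower still, at 0.00794. Timp1 over Timp3 moved from between 0.000966 and 0.00137 in vehicle to between 0.129 and 0.2 with cisplatin alone. Hypoxia libraries 1 to 4 gave 0.0987, 0.0192, 0.027 and 0.00245 for that ratio, in the same order of libraries as their Timp1 levels.

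**Figure D2:**
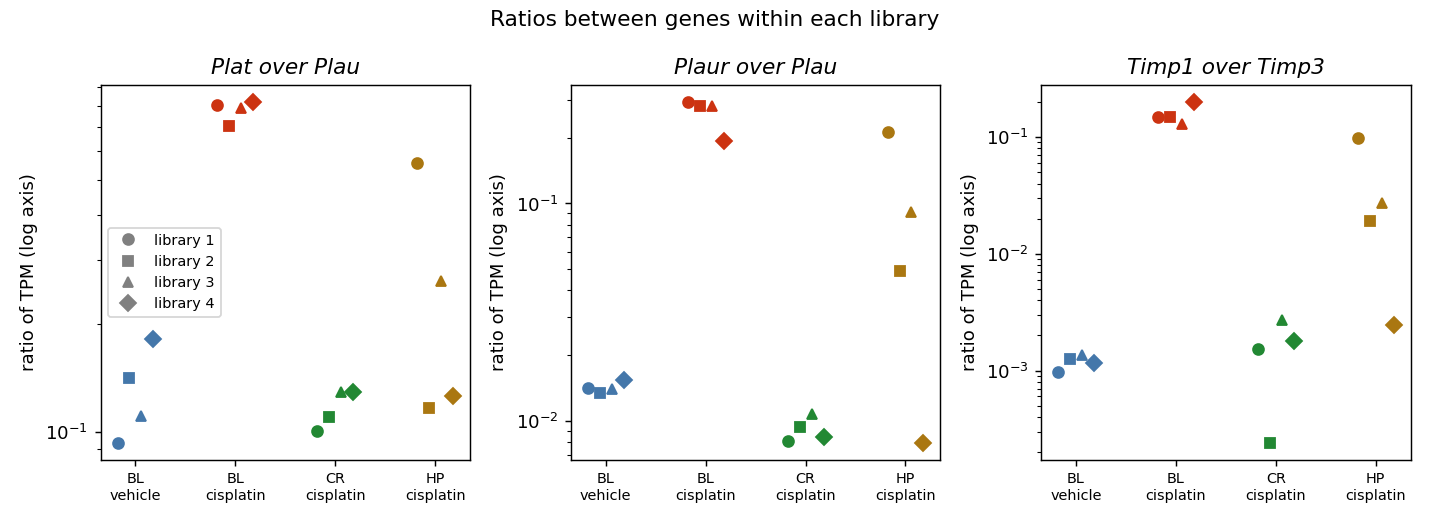
The 3 panels plot TPM ratios (log axis) of Plat over Plau, Plaur over Plau and Timp1 over Timp3 in each library by group. Cisplatin alone is above every vehicle and calorie-restricted library in each panel, and Plaur over Plau is lower after calorie restriction (up to 0.0108) than in vehicle (from 0.0135).

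Calorie restriction was compared with cisplatin alone to ask whether preconditioning altered the response to the drug. Timp3 was higher and Plaur, Plat, Timp1, Mmp14 and Adamts1 were lower, and Plau was not called (-0.12, 95% interval -0.62 to 0.39, adjusted p 0.678). Plaur differed by -4.28 (SE 0.68, adjusted p 0.000123) and Timp1 by -3.43 (SE 0.40, adjusted p 5.83e-05). The Timp1 test was not independent of the filter. Plat differed by -2.79 (SE 0.47, adjusted p 0.000181) and Timp3 by 1.45 (SE 0.20, adjusted p 6.3e-05). Adamts1 differed by -1.97 (adjusted p 0.000114) and Mmp14 by -1.44 (adjusted p 5.83e-05). The background was again high, with 67.3% of genes called, 29.8% higher and 37.4% lower (44.4% of calls higher, and 33.3% without the most abundant genes), and median log2 fold changes were -1.97 over the members and -0.08 over all genes. Both comparisons use the same 4 cisplatin-alone libraries, so their values are not independent. Within the first title prefix, CR_cisplatin 1 stood outside the cisplatin-alone range for each of these 6 members, at 1.86 TPM of Plaur against 44.6 to 53.4 and at 235 TPM of Timp3 against 81.8 to 95.8.

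Against vehicle, calorie-restricted kidneys given cisplatin had 0 of 7 members called by limma, and 0 of 7 at an unadjusted p under 0.05. Of all genes 0.0533% were called (8 genes), and 610 had an unadjusted p under 0.05. The count of genes called was 80 with the compared groups only and 15 without a filter. The voom fit to recovered reads also called 0 members. The intervals bound what could have been missed: -0.50 to 0.35 for Timp3, -0.44 to 0.26 for Mmp14, -0.67 to 0.65 for Adamts1, and -1.77 to 1.14 for Plaur, whose interval is the widest. The members' median was -0.01, and 0.01 over all genes. Plaur was lower in mean after calorie restriction, at 1.62 ± 0.195 TPM against 2.30 ± 0.617 TPM (SD, n = 4), but its ranges overlap and the adjusted p was 1.0.

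Hypoxia was compared with cisplatin alone for the same purpose. Timp1, Mmp14, Adamts1 and Plat were lower and Timp3 higher, with 29.4% of all genes called, 16.4% higher and 13.1% lower (55.5% of calls higher, and 31.2% without the most abundant genes). Timp1 differed by -1.87 (SE 0.40, adjusted p 0.0076), Mmp14 by -0.82 (SE 0.16, adjusted p 0.00609) and Adamts1 by -1.17 (SE 0.31, adjusted p 0.0151). Here too the Timp1 test was not independent of the filter. Plat differed by -1.53 (SE 0.47, adjusted p 0.0281) and Timp3 by 0.65 (SE 0.20, adjusted p 0.0268). Plaur was not called at -1.78 (95% interval -3.24 to -0.33, adjusted p 0.0604), nor was Plau at 0.29 (95% interval -0.21 to 0.79, adjusted p 0.349). The median log2 fold change was -1.17 over the members and -0.02 over all genes. Without HP_cisplatin 4, Timp1 (-1.44, adjusted p 0.0127), Mmp14 (-0.63, adjusted p 0.00729), Adamts1 (-0.85, adjusted p 0.0337) and Timp3 (0.37, adjusted p 0.0131) were still called, and Plat was not (-1.11, adjusted p 0.0809). The Plat call also ended without any 1 cisplatin-alone library or HP_cisplatin 2, the Timp3 call without cisplatin-alone library 1, 2 or 3, and the Adamts1 call without HP_cisplatin 2 (adjusted p 0.0504 to 0.0896), while Plaur was called without HP_cisplatin 1 or 3. Plat was also not called without a filter (adjusted p 0.0518), and Plaur was called when the TPM sum left out abundant genes (adjusted p 0.0417) and with voom (adjusted p 0.0441). No member was called when the fit held only the compared groups or took title prefix as a term (limma, with 5 and 3 members at an unadjusted p under 0.05). Among all genes tested, none was called in those fits either.

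Against vehicle, the hypoxia group was higher in Plaur (2.18, SE 0.68, adjusted p 0.0308), Timp1 (1.61, SE 0.40, adjusted p 0.0164), Plat (1.31, SE 0.47, adjusted p 0.0493) and Mmp14 (0.54, SE 0.16, adjusted p 0.0285). Timp3 was lower (-0.87, SE 0.20, adjusted p 0.0128). Adamts1 was not called at 0.78 (95% interval 0.12 to 1.44, adjusted p 0.0663). Of all genes 29.3% were called, 19.2% higher and 10.1% lower, and the medians were 0.78 over the members and 0.06 over all genes. Without HP_cisplatin 4 all 7 members were called, with 51.3% of all genes called, with Plaur at 3.07 (adjusted p 3.76e-05), Adamts1 at 1.10 (adjusted p 0.00283) and Timp3 at -1.15 (adjusted p 3.84e-07). Without HP_cisplatin 3 the count was 0, with 4 at an unadjusted p under 0.05. It was 2 without HP_cisplatin 1 or vehicle library 1, 2 or 4, 3 without vehicle library 3, and 0 with the compared groups only (4 at an unadjusted p under 0.05). Calls over all genes moved as well. Of 15014 genes, 692 to 7709 were called over the libraries left out, and 11 with the compared groups only.

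Set directly against hypoxia, calorie restriction had lower Plaur (-2.50, adjusted p 0.0284), Timp1 (-1.56, adjusted p 0.0275) and Mmp14 (-0.62, adjusted p 0.0278) and higher Timp3 (0.80, adjusted p 0.0275). Plat (-1.26, adjusted p 0.0605), Adamts1 (-0.79, adjusted p 0.0673) and Plau (-0.41, adjusted p 0.192) were not called. The background was 24.3% of genes called, 9.24% higher and 15% lower, with medians of -0.79 over the members and -0.05 over all genes. These calls were fragile. The count of members called was 0 without any 1 of the 4 calorie-restricted libraries (6 at an unadjusted p under 0.05 each time) and 0 without HP_cisplatin 1 or 3 (4 at an unadjusted p under 0.05), but 7 without HP_cisplatin 4 (51% of all genes called). It was also 0 without a filter, with the compared groups only and with title prefix as a term (6, 4 and 6 at an unadjusted p under 0.05). Calls over all genes were 0 in each of those settings too, and ran from 0 to 7654 over the libraries left out.

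**Figure D3:**
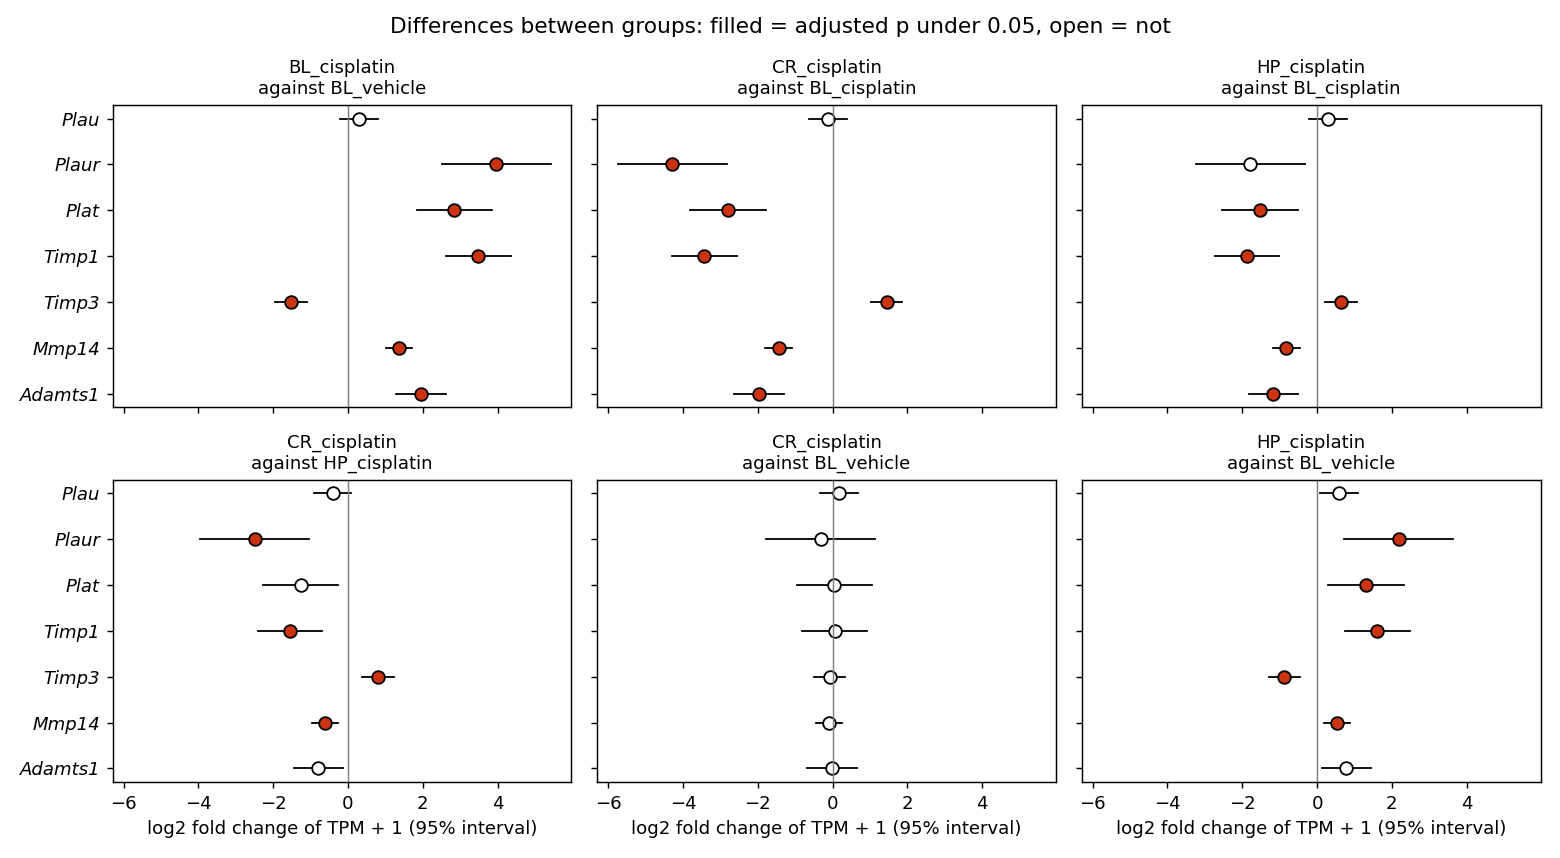
Points are limma log2 fold changes of TPM + 1 for the 7 members in the 6 comparisons, lines are 95% intervals, and filled points have an adjusted p under 0.05. The first 2 panels are near mirror images and share the cisplatin-alone libraries, and no point is filled for calorie restriction against vehicle.

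To show how far each hypoxia kidney went, a library's log2(TPM + 1) was placed between the vehicle mean (0) and the cisplatin-alone mean (1), with Plau left out because those means are close. HP_cisplatin 1 lay between 0.754 (Mmp14) and 1.07 (Plaur), and HP_cisplatin 4 between -0.124 (Plaur) and 0.0861 (Timp1). HP_cisplatin 2 was uneven across members: Plat stood at 0.0739 and Adamts1 at 0.207, while Timp1 stood at 0.389, Mmp14 at 0.39, Plaur at 0.433 and Timp3 at 0.693. In HP_cisplatin 3, Mmp14 (0.47), Timp1 (0.479) and Adamts1 (0.529) were about midway, and Plat (0.723), Timp3 (0.736) and Plaur (0.818) nearer to cisplatin alone. So Timp3 was far from the vehicle level in a kidney whose Plat level was near it. Calorie-restricted libraries stayed between -0.156 (Mmp14) and 0.133 (Timp3). These are single libraries and carry no test.

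**Figure D4:**
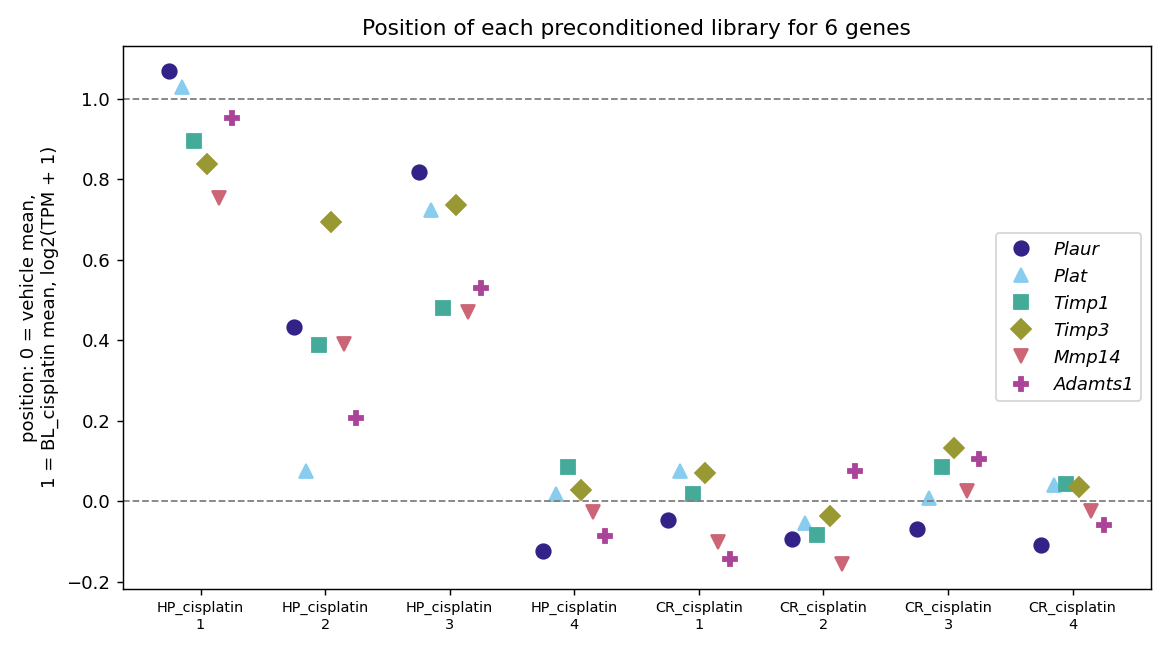
Each preconditioned library's position is plotted for 6 members on a scale of log2(TPM + 1) where 0 is the vehicle mean and 1 the cisplatin-alone mean (dashed lines). Hypoxia libraries 1 to 4 differ in height, Plat (0.0739) and Timp3 (0.693) are farthest apart in HP_cisplatin 2, and calorie-restricted libraries lie near 0.

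The members' neighbours in the plasminogen system were read from a list of 23 genes that includes Plau, Plaur and Plat. Beside these 3, 11 genes were tested, of which 6 were higher and 2 lower with cisplatin alone, a share near the 66.8% of all genes called, with a median log2 fold change of 0.50 against 0.08 over all genes. Serpinf2, which encodes the plasmin inhibitor alpha-2-antiplasmin, fell from 112 to 9.12 TPM (-3.52, adjusted p 6.4e-05). S100a10 and Anxa2, whose proteins form a cell-surface complex that binds plasminogen, rose by 3.36 (adjusted p 8.78e-05) and 3.11 (adjusted p 0.000211; Anxa2 was chosen after its values were seen). Itgav, an integrin subunit that pairs in receptors binding vitronectin, rose by 1.09 (adjusted p 0.000148). Hrg, a plasminogen-binding plasma protein gene, went from 1.85 to 0.0648 TPM, a log2 fold change of -1.36 (adjusted p 0.000155) that the pseudocount of 1 compresses. Plg, the substrate of both activators, averaged 0.0964 TPM in vehicle and 0.0387 TPM with cisplatin alone and did not pass the filter. Inhibitors of the system moved in both directions, as Serpine2, which encodes protease nexin 1, rose (1.84, adjusted p 0.000181) while Serpinf2 fell.

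In the other comparisons these 11 genes gave 2 higher and 6 lower for calorie restriction against cisplatin alone (67.3% of all genes called), and 0 called for calorie restriction against vehicle (0.0533%). Hypoxia gave 1 higher and 2 lower against cisplatin alone (29.4%), and 5 higher and 2 lower against vehicle (29.3%). Without HP_cisplatin 4 these counts were 2 and 0 (19.2% of all genes called) and 6 and 2 (51.3%). S100a10 averaged 213 TPM after hypoxia, against 274.5 with cisplatin alone, a difference that was not called (-0.82, adjusted p 0.228, and -0.09, adjusted p 0.788, without HP_cisplatin 4). It differed from vehicle (2.54, adjusted p 0.00976, and 3.26, adjusted p 1.91e-07, without that library).

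Of 21 matrix metalloprotease genes, 12 stayed under 1 TPM in every library and 8 passed the filter. Mmp7 and Mmp10 passed it only with the cisplatin-alone group, where they were high, so their tests against that group are not given. Mmp13, which averaged 0.424 TPM in vehicle and 0.0946 TPM with cisplatin alone, did not pass. For these reasons no count is drawn from this family. Higher with cisplatin alone beside Mmp14 were Mmp15, a membrane-type enzyme like Mmp14, from 0.496 to 3.31 TPM (1.52, adjusted p 4.73e-05), and Mmp23 (0.27, adjusted p 0.0456). Mmp10, a stromelysin, averaged 0.0106 TPM in vehicle and 2.57 TPM with cisplatin alone, and Mmp7, matrilysin, 0.00561 and 1.72 TPM. Mmp2, the gelatinase that MMP14 activates, was at 1.16 ± 0.170 TPM in vehicle and 0.965 ± 0.572 TPM with cisplatin alone and was not called (-0.18, adjusted p 0.416). Mmp9, the other gelatinase, averaged 0.0753 and 0.293 TPM and was not tested. After hypoxia Mmp7 averaged 0.293 TPM. It was not called against vehicle (0.31, adjusted p 0.161), but was without HP_cisplatin 4 (0.41, adjusted p 0.0495).

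Among the 4 tested inhibitors of metalloproteases, Timp1 rose, Timp3 and Reck fell, and Timp2 was not called with cisplatin alone. Reck encodes a membrane-anchored inhibitor and differed by -0.35 (adjusted p 0.0109). Timp2 averaged 10.5 TPM in vehicle and 8.22 TPM with cisplatin alone (-0.32, adjusted p 0.127). The summed level of the 5 inhibitor genes was 252 to 274 TPM in vehicle and 102 to 128 TPM with cisplatin alone, and was mostly Timp3 in both.

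Of the ADAMTS and ADAM genes beside Adamts1, 13 were tested, and 6 were higher and 3 lower with cisplatin alone (66.8% of all genes called). Those higher include Adamts2, Adamts4 and Adam8, which met the filter only with the cisplatin-alone libraries counted, where they were high. Their tests against that group are therefore not given. The count was not independent of the filter, and nothing is drawn from it. Adamts4, an aggrecanase related to Adamts1, averaged 0.0627 ± 0.0206 TPM in vehicle and 5.81 ± 0.217 TPM with cisplatin alone (SD, n = 4). Adamts4 averaged 0.385 TPM after calorie restriction, with a range of 0.211 to 0.472 TPM that lies above the vehicle range of 0.0335 to 0.0811 TPM, yet the difference was not called (0.38, adjusted p 1.0). That test used the spread shared with the hypoxia group, where the SD was 1.96 TPM against 0.118 TPM after calorie restriction. Adam10, a sheddase, rose by 0.71 (adjusted p 0.000139) and Adamts9 by 0.64 (adjusted p 0.000131). Adamts2, which trims procollagen, averaged 0.645 TPM in vehicle and 1.51 TPM with cisplatin alone. Adamts5, another aggrecanase, moved the opposite way to Adamts4 and Adamts1, at -0.52 (adjusted p 0.00319).

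**Figure D5:**
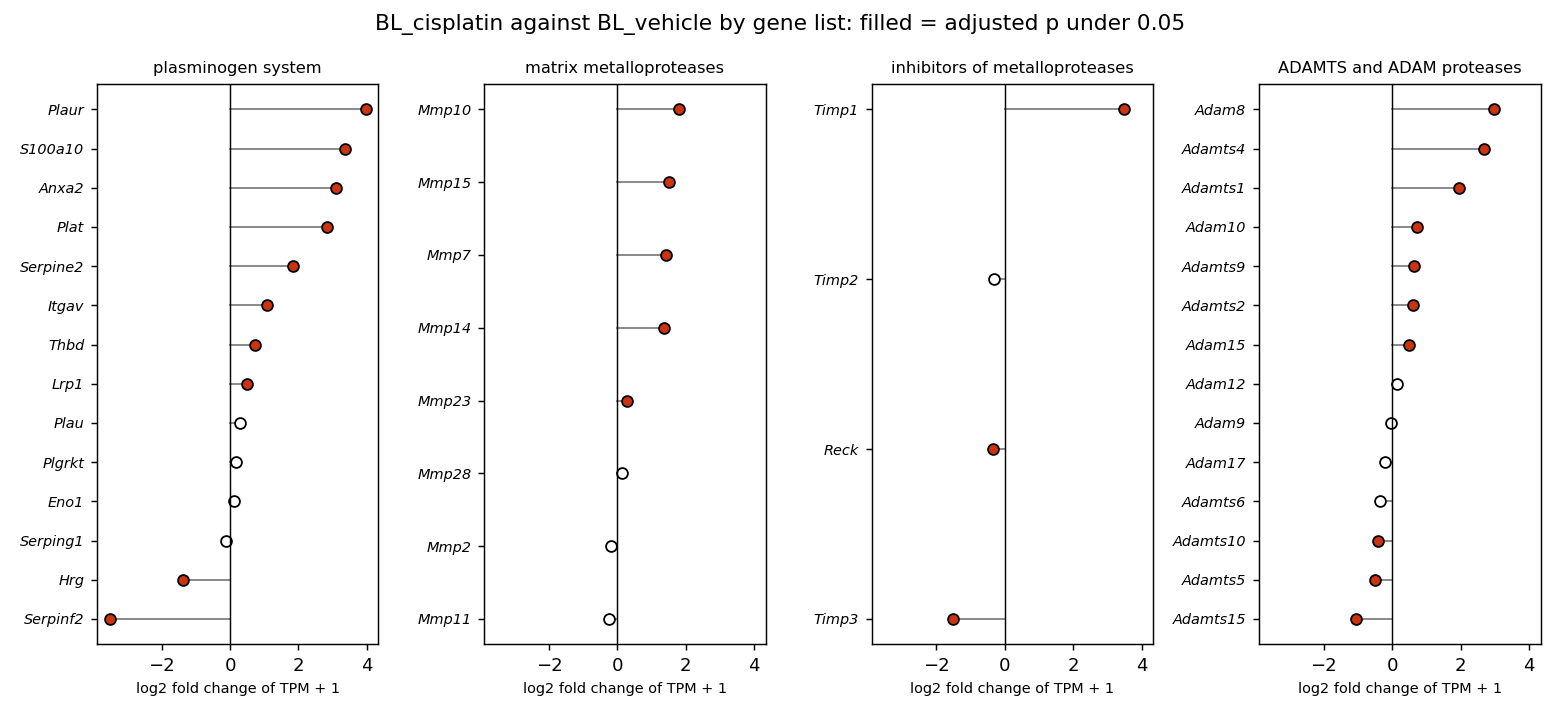
Log2 fold changes of TPM + 1 for cisplatin alone against vehicle are plotted for every tested gene of the 4 lists, with filled points at an adjusted p under 0.05. Plaur (3.96) and Serpinf2 (-3.52) are the ends of the plasminogen list, and Timp1 and Timp3 those of the inhibitors. Timp1, Mmp7, Mmp10, Adamts2, Adamts4 and Adam8 met the filter only with the cisplatin-alone libraries counted.

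Genes of the proteins these enzymes act on were also followed: of 20, 18 were tested, and 9 rose and 1 fell with cisplatin alone. Both directions together, that is below the 66.8% of all genes called. By direction, 38% of all genes were higher and 28.8% lower, so the share that rose is above its background and the share that fell below. The 9 include Fgb, whose test was not independent of the filter. Of the fibrinogen chains, precursors of the fibrin that plasmin dissolves, Fga rose from 7.56 to 299.6 TPM (5.19, adjusted p 3.62e-05) and Fgg from 1.86 to 272 TPM (6.57, adjusted p 5.97e-05). Fgb averaged 0.129 TPM in vehicle and 34.9 TPM with cisplatin alone. It met the filter only with the cisplatin-alone libraries counted, so its test against that group is not given. Spp1, osteopontin, rose from 287 to 4623 TPM (4.05, adjusted p 4.55e-05), and Egf, the growth factor of the distal tubule, fell from 188.5 to 3.63 TPM (-5.39, adjusted p 4.53e-05). Hypoxia lay between for Fga, at 98.0 TPM, lower than with cisplatin alone (-2.06, adjusted p 0.0191) and higher than in vehicle (3.14, adjusted p 0.00785). Without HP_cisplatin 4 these were -1.33 (adjusted p 0.0241) and 3.86 (adjusted p 2.83e-06).

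In whole kidney, fewer cells of a type and less RNA per cell cannot be told apart, so markers of the cells that could carry these genes are given beside them. Summed proximal tubule markers (8 genes, 8 of 8 lower with cisplatin alone) were 3080 to 3760 TPM in vehicle, 149 to 245 with cisplatin alone, 2940 to 3530 after calorie restriction and 248, 1890, 759 and 2950 in hypoxia libraries 1 to 4. That order of the hypoxia libraries is the reverse of the order of Plaur, Plat, Timp1, Mmp14 and Adamts1. Thick limb, distal tubule and collecting duct markers (7 of 10 lower) went from 1580 to 2630 down to 357 to 634 TPM, a sum led by Umod (1442 to 259.7 TPM in mean), while the collecting duct genes Aqp2 (0.16, adjusted p 0.725) and Fxyd4 (0.41, adjusted p 0.17) were not called. Macrophage markers (12 genes, 10 tested) were mixed, with Cd68, Cd14 and Itgam higher and Csf1r and Adgre1 lower. Itgam met the filter only with the cisplatin-alone libraries counted, so its test was not independent of the filter. The macrophage markers summed to 47.5 to 63.9 TPM in vehicle and 115 to 137 with cisplatin alone. That rise lay mostly in Cd68 (1.72 to 56.7 TPM in mean) and Cd14 (1.80 to 26.2 TPM). Csf1r went from 12.6 to 4.05 TPM, and C1qa, C1qb, C1qc, Lyz2 and Mrc1 were not called. Neutrophil markers summed to 0.448 to 0.838 and 6.37 to 8.92 TPM, with 8 of 12 under 1 TPM in every library and Mpo, Elane and Ly6g at 0 in vehicle. Endothelial markers were lower in 7 and higher in 2 of 11 tested, and summed to 140 to 166 and 105 to 121 TPM. Fibroblast and pericyte markers were higher in 4 of 9 tested (Pdgfrb, Col1a1, Col1a2 and Col3a1), from 54.1 to 77.5 up to 94 to 106 TPM. Podocyte markers were higher in 2 and lower in 3 of 8. Of all genes tested 66.8% were called, 38% higher and 28.8% lower. The macrophage and fibroblast counts, both directions together, lie below that share. The podocyte count and that of thick limb, distal tubule and collecting duct are near it, and the endothelial and proximal tubule counts lie above it. The part of any of these cells in the members' levels was not tested.

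Across the 16 libraries, 6 members varied together: Pearson r of log2(TPM + 1) ran from 0.949 (Plat and Mmp14) to 0.975 (Timp1 and Mmp14) among those that rose, and from -0.975 (with Mmp14) to -0.928 (with Plat) for Timp3. Plau stood aside, with r between 0.372 (Adamts1) and 0.543 (Plaur) to the rising members and -0.477 to Timp3. The libraries share the contrast between injured and uninjured kidneys, so such values are a description. Among the 12091 protein-coding genes tested, with the members then left out, the closest to Plaur were Mvp (r 0.999), Sh3bgrl3 and Cd151 (both 0.997). Closest to Plat were Rac1 (0.995), Ptgfrn and Flnc (both 0.994), and closest to Timp1 were Raph1 (0.995), Saa1 (0.994) and St3gal1 (0.993). Mmp14 was closest to Ncdn (0.993), Arid5a and Cxcl2 (both 0.991), and Adamts1 to Zcchc9 (0.988), Arap1 (0.987) and Eif4a1 (0.986). Timp3 was closest to Tcaim (0.993), Slc39a11 (0.990) and Tyw3 (0.989). Plau had no gene as close: its highest were Fmn1 (0.862), Prss23 (0.861) and Rabepk (0.856).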

How the data were processed

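RNA of 16 kidney libraries was measured, and the labels' injection and preconditioning fields gave the groups, with replicates numbered in label order. The authors deposited 1 table of TPM per gene, with no unit named: the unit was read from sums of 1000000 per library. Per the submitters' processing notes, STAR 2.5, featureCounts and Subread 1.5 were used with mm10 and GRCm38; their settings are not given in the sources used here. Of 46078 genes 13880 were at 0 in every library. Positions come from GENCODE M21 (45229 gene IDs found), promoters from RefSeq.

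The 15014 genes that reached 1 TPM in 4 or more libraries were fitted as log2(TPM + 1) with limma 3.58.1 (R 4.3.3, statmod 1.5.0; trended, robust prior) over all 16 libraries, group as the only term. The shared spread is too small for hypoxia, whose libraries differed more than the others. For genes that varied widely in hypoxia it is too large for comparisons without that group. P-values are 2-sided and Benjamini-Hochberg adjusted within each of 6 comparisons over all genes tested, with a threshold of 0.05. Members, gene lists and comparisons were chosen with earlier results of these data known. Timp1, Adamts2, Adamts4, Adam8, Fgb, Itgam and S100a8, like Mmp7 and Mmp10, met the filter only with the cisplatin-alone libraries counted. For them the filter was not independent of tests against that group. Named were the members, up to 5 genes of a list with the smallest adjusted p for cisplatin alone against vehicle and up to 3 elsewhere, and Plg, Mmp2, Mmp7, Mmp9, Timp2 and Adamts4 whatever their result; not every such gene is named, and 1 gene of the plasminogen list is not reported here and not counted in it.

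Whole reads were recovered from TPM steps (tolerance 0.0001), with the annotated exon length for 24571 of 32198 genes (76.3%) and a searched length for 7627, where reads may be a fraction of the true number. Alternatives were a pseudocount of 0.1, no filter, a filter of 2 TPM in 8 libraries, a TPM sum without abundant genes (composition), compared groups only, no trend, title prefix as a term, voom on recovered reads, and each library left out.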

Additional observations from a re-analysis of the deposited data

How the results depend on the processing

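Of 660 recomputed member values 547 kept direction and side of the threshold, 89 lost the call, 13 gained it and 11 changed sign. For cisplatin alone against vehicle and calorie restriction against cisplatin alone, the 6 members called remained 6 whichever library was left out. The title prefix term rests on CR_cisplatin 1 against CR_cisplatin 2 to 4, and SEs grew with it. For Plaur, cisplatin alone against vehicle, the SE went from 0.678 to 1.345 and the log2 fold change from 3.96 to 3.79. Calls lost in that fit therefore do not show an effect of prefix. With title prefix as a term, genes called fell to 3413 for cisplatin alone against vehicle and to 6327 for calorie restriction against cisplatin alone, and Plau changed sign (-0.21 and 0.26). In the same fit 0 genes and 0 members were called for hypoxia against cisplatin alone (1564 genes at an unadjusted p under 0.05) and for calorie restriction against hypoxia (5553). With compared groups only, 0 genes and 0 members were called in these 2 comparisons (4273 and 4353 genes at an unadjusted p under 0.05), 11 genes and 0 members for hypoxia against vehicle (4559), and 80 genes for calorie restriction against vehicle. Without a filter, calorie restriction against hypoxia had 0 genes and 0 members called (8511 genes at an unadjusted p under 0.05), hypoxia against vehicle 2956 genes of 32198 and 2 members, and calorie restriction against vehicle 15 genes. The stricter filter removed Timp1 and Mmp14 and left 3, 2 and 3 members called in the comparisons of hypoxia with cisplatin alone, calorie restriction and vehicle. Of the 11497 genes it kept, 3786, 3079 and 3542 were called there.

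Leaving out 1 library at a time gave 2210 to 7156 genes and 3 to 6 members for hypoxia against cisplatin alone, 0 to 7654 genes and 0 to 7 members for calorie restriction against hypoxia, and 692 to 7709 genes and 0 to 7 members for hypoxia against vehicle. The lowest counts came without HP_cisplatin 2, without CR_cisplatin 1 (among others) and without HP_cisplatin 3. For calorie restriction against vehicle it gave 4 to 9 genes, and small values crossed 0: Plat -0.00498 to 0.117, Timp1 -0.0261 to 0.170 and Adamts1 -0.102 to 0.0798. Plat was -0.00498 and Adamts1 0.0786 with title prefix as a term, and Timp1 -0.0322 with voom. The composition setting moved the median log2 fold change of all genes from 0.08 to 0.21 (0.23 with voom) for cisplatin alone against vehicle. It moved the share of higher genes among those called from 56.9% to 67.4% there, from 44.4% to 33.3% for calorie restriction against cisplatin alone, and from 55.5% to 31.2% for hypoxia against cisplatin alone. The cause of these changes was not tested. No paired analysis was possible because the labels number no replicates. At 2 to 20 reads a library, Timp1 in vehicle and calorie restriction is the member whose level is least precise.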
